A study of Homo sapiens with 8 samples.

Results

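The baseline transcriptome of vehicle-treated U-937 cells is described here. U-937 is a human line established from a histiocytic lymphoma and is labelled pro-monocytic, a stage of the white blood cell series just before the monocyte. The description uses the 2 vehicle libraries of the 8 in the study, replicates 1 and 2, chosen by their vehicle label, and the other 6 libraries were not used. The vehicle cells had received the solvents PBS and DMSO for 72 h, with no other agent, and were grown in RPMI medium with fetal bovine serum and antibiotics. They are an established line in culture and carry none of the marrow or tissue cells that surround a monocyte precursor in the body. The labels do not state whether replicates 1 and 2 were grown as separate cultures, so the spread between them may be technical. Poly-T beads enriched the mRNA before sequencing.

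Myeloid cells are built in steps. Early precursors switch on the regulators SPI1 and the C/EBP factors and pack primary (azurophil) granules with proteases and antimicrobial proteins, and later steps bring the secondary granule proteins of neutrophils or the scavenger and pattern receptors of monocytes and macrophages. HOXA9 and MEIS1 are active in stem and progenitor cells and in many myeloid leukemias, and MYC drives growth and division. A promonocytic cell would by this scheme be read from its granule genes, its regulators and the receptors it has or lacks.

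Levels are given as FPKM, fragments per kilobase of transcript scaled to library size, which allows genes to be set against each other. A gene counts as present at 1 FPKM or more in both libraries, as not detected with 0 estimated counts in both, and as low or trace between these, with trace a mean under 0.1 FPKM. The estimated counts summed to 19646442 in replicate 1 and 19541981 in replicate 2. A single library's floor of 3 counts was 0.153 CPM (counts scaled to library size) in replicate 1 and 0.154 CPM in replicate 2, and it covers counting error only. By this rule 11969 of the 61125 genes listed were present (19.6%), 5820 were low, 3534 were trace and 39802 were not detected (65.1%). Of 19820 protein-coding genes 10594 were present (53.5%) and 5610 were not detected (28.3%), and the lists below are read beside those shares. The libraries differed by more than counting noise, with a chi-square of 5.12 per degree of freedom over 13490 genes with at least 10 counts in each, so they were not treated as copies of 1 library, which leaves unknown whether the cultures were separate. Over those genes the median absolute log2 difference in CPM was 0.12, and Spearman's rho of the counts across genes, which are not independent replicates, was 0.995.

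**Figure D1:**
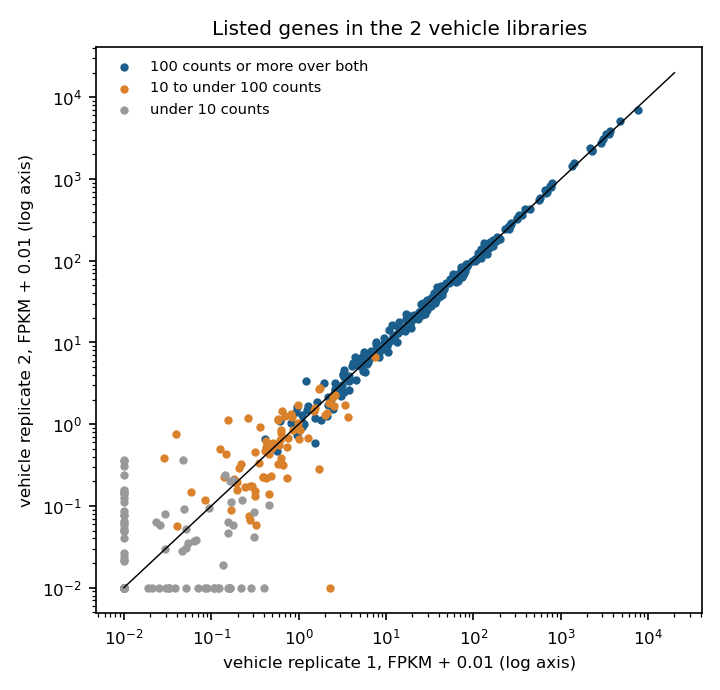
Listed genes in vehicle replicate 1 (x axis) and vehicle replicate 2 (y axis), both as FPKM + 0.01 on log axes, coloured by the counts over both libraries; the line marks equal values. Most genes with 100 counts or more lie close to the line, and the widest scatter is among genes with fewer counts, such as MPO at 0.144 and 1.12 FPKM. Among genes with at least 100 counts in each library, log2 of replicate 2 over replicate 1 still reached -0.759 (blood-cell transcription factors) and 0.71 (HOXA).

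The labels mark these cells as pro-monocytic, and 3 of the 4 marker genes looked for were present. MYC, the growth-promoting transcription factor, had 201 FPKM in replicate 1 and 187 FPKM in replicate 2. SPI1 (PU.1), the ETS factor that opens myeloid genes, had 134 and 143 FPKM, and HOXA9, the homeobox gene of progenitors, had 86.8 and 90.9 FPKM. MPO, which encodes the myeloperoxidase of primary granules and is the textbook marker of the myeloid line, went against the set: it had 9 counts in each library. The 18 counts amount to 0.459 CPM over both libraries, with an exact Poisson 95% interval of 0.272 to 0.726 CPM that covers counting error only. Its FPKM was 0.144 in replicate 1 and 1.12 in replicate 2 although the counts were equal, and the gene length implied by counts and FPKM was 3180 bases in replicate 1 and 413 bases in replicate 2. A difference in implied length of more than 1.5-fold was found for 610 genes (4.52% of those with at least 10 counts). In bulk RNA a low level may be a few cells with much of a transcript or little in all of them, and the 2 cannot be told apart. The genes lie on GRCh38 at chr17:58269856-58280935 (MPO), chr11:47354860-47378576 (SPI1) and chr7:27162435-27175180 (HOXA9), all on the minus strand, in the GENCODE 29 annotation.

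Several primary granule genes stood at very high levels, while MPO did not. Of 15 members 10 were present (66.7%), beside 53.5% of protein-coding genes, and the list median was 174 FPKM. Members were chosen with earlier results of these data known, so that share only describes the list. ELANE, neutrophil elastase, had 3015 and 3066 FPKM and ranked 70 among all genes. CTSG, cathepsin G, had 2865 and 2764 FPKM and ranked 75. These 2 serine proteases stood with GAPDH (3250 and 3557 FPKM), a glycolytic enzyme of every cell. AZU1, the protease-like antimicrobial azurocidin, had 797 and 894 FPKM. PRTN3, proteinase 3, had 662 and 732 FPKM. Together these 4 protease genes took 0.525% and 0.539% of all estimated counts, and for the 10 members with at least 100 counts the FPKM of the replicates lay within 0.17 log2 units.

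SRGN, serglycin, the proteoglycan that packs granule proteins, had 673 and 679 FPKM. LYZ, lysozyme, had 388 and 429 FPKM, and CTSC, the peptidase that activates granule proteases, had 166 and 182 FPKM. The granule ribonucleases RNASE2 (314 and 333 FPKM) and RNASE3 (154 and 162 FPKM) were present, genes better known from eosinophils. PRSS57, another granule protease, was lower at 7.25 and 7.91 FPKM. BPI, the bactericidal protein of late primary granules, had 18 and 37 counts and was low. The defensins DEFA1, DEFA3 and DEFA4 had 0 counts in both libraries, with DEFA1 and DEFA3 near-identical copies.

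The proteases sit beside each other in the genome, and only some of their neighbours were active. AZU1, PRTN3, ELANE and CFD lie within 38.5 kb on chromosome 19, and all 4 were present. CFD, complement factor D, had 133 and 146 FPKM, and PTBP1, a splicing regulator upstream of the group, had 225 and 232 FPKM. KISS1R, a peptide receptor 3 genes beyond CFD, was not detected. On chromosome 14, CTSG lies among serine proteases of mast cells and killer cells within 129 kb. CMA1, mast cell chymase, had 11 and 12 counts (0.82 and 1.22 FPKM), GZMH, granzyme H, had 4 and 1 counts, and GZMB, granzyme B, had 3 and 0 counts. CTSG was 3492-fold and 2264-fold higher than CMA1 in FPKM, and the CMA1 end of that ratio rests on these few counts. Around MPO on chromosome 17, EPX (eosinophil peroxidase) had 0 and 2 counts and LPO (lactoperoxidase) had none, while SUPT4H1, a transcription elongation factor, had 76.3 and 76.1 FPKM.

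**Figure D2:**
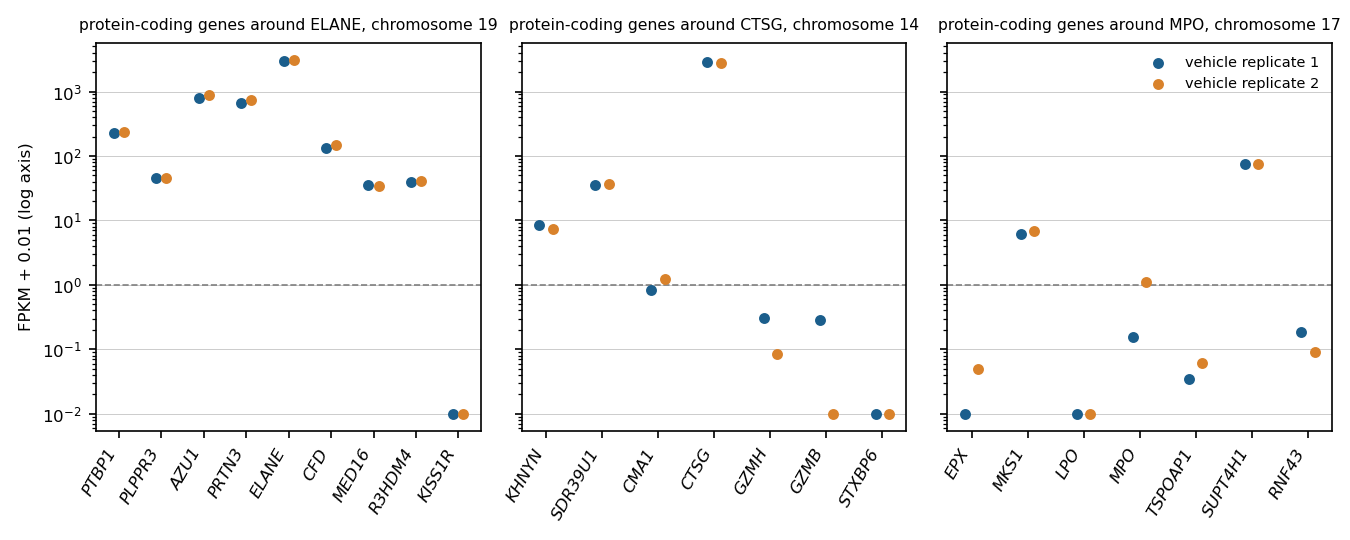
FPKM + 0.01 on a log axis for the protein-coding genes around ELANE, CTSG and MPO, in gene order from left to right, in vehicle replicates 1 and 2; the dashed line is 1 FPKM. AZU1, PRTN3, ELANE and CFD stand above 100 FPKM together, whereas CTSG is alone above 1000 FPKM in its group and MPO has low or undetected peroxidase neighbours.

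Promoter sequence is shown for 4 granule genes that were present, and for CTSG with CMA1, adjacent proteases of which only the first was present. Each run spans 250 bases before to 50 after the RefSeq start on GRCh38.p14, 5′ to 3′ on the gene's strand. The intervals are chr19:827587-827886 (AZU1, plus strand), chr19:840749-841048 (PRTN3, plus strand), chr14:20955237-20955536 (RNASE2, plus strand), chr14:20891135-20891434 (RNASE3, plus strand), chr14:24576201-24576500 (CTSG, minus strand) and chr14:24508216-24508515 (CMA1, minus strand). Capitals mark the motifs searched: GAGGAAGT, bound by SPI1, and TTGCNNAA, bound by C/EBP factors, and TATAAA, the TATA box, all on both strands. No overlap between these matches was found in the sequences below.

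AZU1: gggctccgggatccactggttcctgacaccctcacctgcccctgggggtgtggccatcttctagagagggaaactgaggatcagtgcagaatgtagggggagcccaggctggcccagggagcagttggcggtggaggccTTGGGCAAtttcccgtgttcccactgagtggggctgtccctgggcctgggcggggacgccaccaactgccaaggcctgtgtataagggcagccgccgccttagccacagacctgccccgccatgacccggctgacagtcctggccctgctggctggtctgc

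PRTN3: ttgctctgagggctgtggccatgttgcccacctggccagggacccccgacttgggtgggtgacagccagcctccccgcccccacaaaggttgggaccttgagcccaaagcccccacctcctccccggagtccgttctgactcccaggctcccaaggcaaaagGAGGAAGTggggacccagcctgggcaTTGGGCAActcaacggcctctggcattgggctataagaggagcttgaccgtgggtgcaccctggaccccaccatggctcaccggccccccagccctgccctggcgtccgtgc

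RNASE2: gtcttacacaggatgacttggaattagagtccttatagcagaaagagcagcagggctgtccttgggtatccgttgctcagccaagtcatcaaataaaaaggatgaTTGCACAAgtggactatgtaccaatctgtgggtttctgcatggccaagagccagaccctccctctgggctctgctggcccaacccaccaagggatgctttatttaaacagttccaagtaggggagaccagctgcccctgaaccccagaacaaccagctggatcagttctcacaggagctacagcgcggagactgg

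RNASE3: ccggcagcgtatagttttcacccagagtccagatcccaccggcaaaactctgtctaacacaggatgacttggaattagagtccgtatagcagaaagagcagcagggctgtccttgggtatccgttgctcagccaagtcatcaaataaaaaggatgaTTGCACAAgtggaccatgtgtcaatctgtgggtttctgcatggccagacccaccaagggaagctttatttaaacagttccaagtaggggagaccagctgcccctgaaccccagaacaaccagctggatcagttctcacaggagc

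CTSG: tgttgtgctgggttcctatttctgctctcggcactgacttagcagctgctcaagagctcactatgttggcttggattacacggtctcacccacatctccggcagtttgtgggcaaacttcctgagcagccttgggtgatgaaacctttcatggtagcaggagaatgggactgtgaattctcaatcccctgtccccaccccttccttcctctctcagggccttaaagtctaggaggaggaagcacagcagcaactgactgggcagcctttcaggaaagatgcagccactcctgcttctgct

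CMA1: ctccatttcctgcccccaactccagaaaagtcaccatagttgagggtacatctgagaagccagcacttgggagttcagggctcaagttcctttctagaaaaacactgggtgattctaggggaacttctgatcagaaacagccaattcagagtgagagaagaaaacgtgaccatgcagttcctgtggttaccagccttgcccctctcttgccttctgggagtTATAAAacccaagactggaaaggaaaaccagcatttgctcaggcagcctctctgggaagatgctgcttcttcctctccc

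A C/EBP-type match was found in AZU1 (first base at -111 from the start), PRTN3 (-62), RNASE2 (-145) and RNASE3 (-94), and the SPI1 type in PRTN3 (-88). CTSG and the promoters of GZMH and GZMB, not printed, held none of the 3 motifs, and CMA1 held TATAAA at -29. Promoters of HOXA9, HOXA7, MEIS1, NKG7, IGLL1 and XAGE1B were also searched and are not printed. None held a C/EBP or SPI1 match, and HOXA9 held TATAAA at -150. SRGN, LYZ, CTSC and PRSS57 were not searched, so the matches do not describe granule genes in general. The RNASE2 and RNASE3 matches lie in a stretch of sequence that both promoters share. Of 35116 RefSeq promoters, 10.5% held TTGCNNAA, 2.59% GAGGAAGT and 11.5% TATAAA. A match describes letters only. ELANE, MPO and SPI1 are named without sequence.

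The regulators of the myeloid program were mostly present. Of 34 blood-cell transcription factors 25 were present (73.5%), with a median of 19.8 FPKM. LYL1, a basic helix-loop-helix factor of progenitors, had 190 and 189 FPKM, and MYB, the progenitor factor, had 150 and 145 FPKM. Among C/EBP factors, CEBPA (183 and 176 FPKM), the driver of myeloid commitment, was highest. CEBPB, which acts in monocytes, had 63.6 and 66.8 FPKM, and CEBPE, which acts in late granule formation, had 29.6 and 28.4 FPKM. CEBPD had 0 counts in both libraries, which for an exact Poisson interval allows up to 0.0941 CPM. GFI1, a repressor of neutrophil precursors, had 79 and 71.2 FPKM, and IRF8, a driver of the monocyte fate, had 64.3 and 61.3 FPKM, so both were present. RUNX1, the core-binding factor of blood development, had 22.9 and 19.5 FPKM.

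Several factors of later or other lineages stood lower. KLF4, a monocyte factor, was present at 2.16 and 1.73 FPKM. EGR1, an immediate-early factor, had 0.38 and 0.217 FPKM, and MAF had 0 counts. GATA1 and TAL1, the red-cell regulators, had 0 counts, and GATA2, of stem and mast cells, was at 0.859 and 0.834 FPKM. Others stood above the list median of 19.8 FPKM. ZEB2, a repressor expressed in myeloid cells, had 64 and 59.6 FPKM and FLI1, an ETS factor of blood cells, 54 and 59.2 FPKM. ID2, a dominant inhibitor of helix-loop-helix factors, had 40.8 and 35.5 FPKM.

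**Figure D3:**
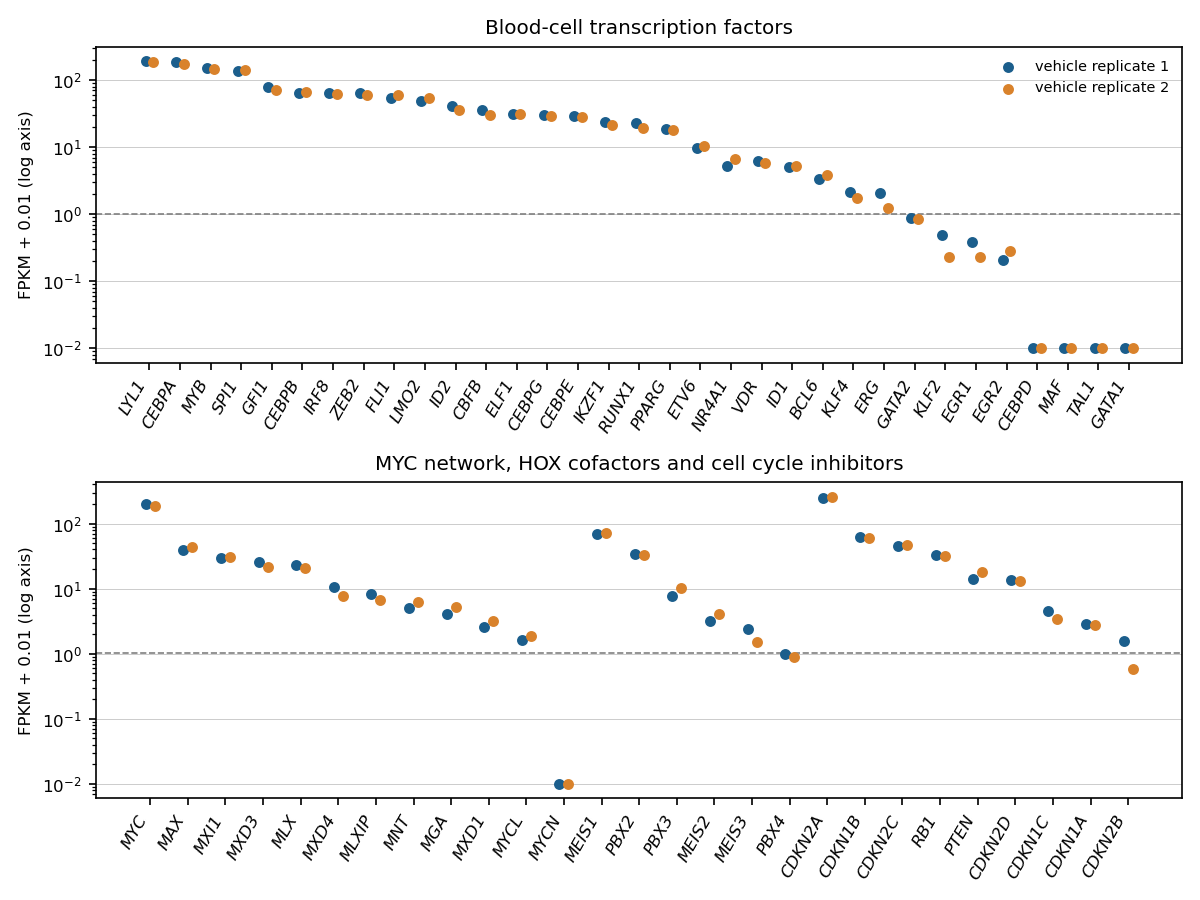
FPKM + 0.01 on log axes in vehicle replicates 1 and 2, for blood-cell transcription factors (upper) and for the MYC network, HOX cofactors and cell cycle inhibitors (lower), each list sorted by level; the dashed line is 1 FPKM. LYL1, CEBPA, MYB and SPI1 lead the upper panel, MYC, MEIS1 and CDKN2A lead their lists, and 4 factors of the upper panel sit at 0 counts.

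HOX genes were on in one cluster and off in 2 others. In the HOXA cluster 9 of 11 genes were present, the HOXC cluster had 4 of 9, and no member of HOXB or HOXD was. All 10 HOXB genes had 0 counts, and of 9 HOXD genes only HOXD12 had any, 4 in each library. HOXA levels split by position. HOXA10 had 114 and 109 FPKM, HOXA9 was given above, HOXA11 had 29.5 and 32.6 FPKM and HOXA13 had 29.9 and 30.3 FPKM. The 6 genes HOXA2 to HOXA7 had mean levels of 0.494 to 5.48 FPKM, and the 4 from HOXA9 to HOXA13 had 30.1 to 111 FPKM. HOXA9 was 27.1-fold and 22.0-fold above HOXA7, the nearest gene on its low side.

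Within the lower group, HOXA5 had 4.98 and 5.98 FPKM, HOXA7 had 3.21 and 4.13 FPKM and HOXA3 had 1.93 and 3.16 FPKM. HOXA6 had 2.49 and 2.14 FPKM. HOXA4 (26 and 8 counts) and HOXA2 (14 and 15 counts) fell below the presence rule. Of 28 noncoding genes in the HOXA region 6 were present, 3 were low and 19 were not detected. Most of those not detected are unnamed entries typed misc_RNA, and so is 1 of those present, with 6 and 10 counts. The count is thus not one of long noncoding RNAs alone. Over all long noncoding genes, a set without misc_RNA and microRNA entries, 5.77% were present. HOXA11-AS had 47.7 and 52.6 FPKM, and HOTAIRM1 5.95 and 8.23 FPKM, while HOXA-AS3 was low at 0.47 and 0.333 FPKM. MIR196B, a microRNA gene, had 0 counts. Poly-T enrichment is not made to capture microRNAs, so that value does not show whether MIR196B was silent. Counting by strand is not given, so HOXA11 reads and those of its antisense partner cannot be told apart.

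In HOXC, HOXC10 had 28.2 and 22.1 FPKM, HOXC4 had 13.4 and 10.1 FPKM, HOXC6 had 6.07 and 6.57 FPKM and HOXC5 had 2.5 and 1.66 FPKM. Among HOX partners, MEIS1, which binds DNA with HOXA9, had 69.9 and 72.4 FPKM, a level close to that of HOXA9 itself. PBX2 had 34.4 and 32.6 FPKM and PBX3 had 7.58 and 10.1 FPKM.

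**Figure D4:**
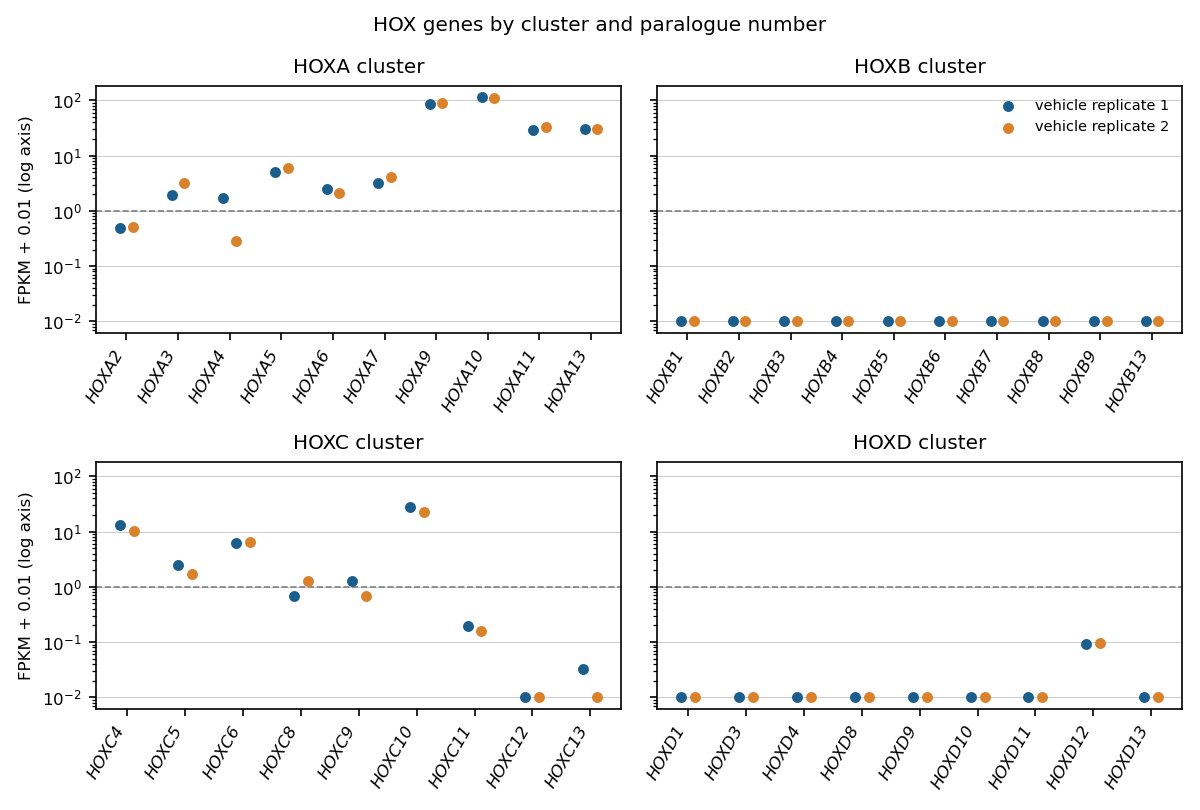
FPKM + 0.01 on log axes for genes of the HOXA, HOXB, HOXC and HOXD clusters, ordered by paralogue number, in vehicle replicates 1 and 2; the dashed line is 1 FPKM and 0.01 marks a gene at 0. HOXA9 to HOXA13 stand at 29.5 to 114 FPKM, HOXB is at 0 throughout, and HOXD shows only HOXD12 above 0.

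The MYC network and the division machinery were present almost throughout. Of 12 network members 11 were present. MAX, the obligate partner of MYC, had 39.9 and 43.6 FPKM, and MYC was 5.05-fold and 4.28-fold higher than MAX. MXI1, a repressor that competes for MAX, had 29.5 and 30.2 FPKM, and MYCN had 0 counts. Of 26 cell cycle genes 25 were present (96.2%), with a median of 79.6 FPKM. PCNA, the replication clamp, had 565 and 561 FPKM, TYMS, which makes thymidylate, 267 and 286 FPKM, and MKI67, the proliferation antigen, 34.8 and 37 FPKM. CCND1, a D-type cyclin, was the exception at 0.232 and 0.16 FPKM, while its relative CCND3 had 73.7 and 63.1 FPKM.

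The brakes on division were uneven. CDKN2A, which encodes p16 and ARF, had 246 and 258 FPKM, whereas CDKN1A, which encodes p21, had 2.84 and 2.72 FPKM and CDKN2B, which encodes p15, had 1.54 and 0.575 FPKM. CDKN1B (p27) had 62.4 and 59.7 FPKM and RB1 33 and 31.3 FPKM. Of 20 genes of leukemia biology 19 were present. NPM1, the nucleolar chaperone, had 1350 and 1437 FPKM, and BMI1, a Polycomb subunit, had 257 and 248 FPKM. U-937 cells are known to carry a PICALM-MLLT10 fusion. PICALM had 21.7 and 20.6 FPKM from 1275 and 1305 counts, and MLLT10 26.8 and 30.3 FPKM from only 240 and 294 counts. The higher FPKM of MLLT10 thus comes with fewer counts and a shorter implied length, so the 2 genes are not ranked here. Gene-level values do not separate a fusion transcript from the normal ones. WT1 was low, with 16 and 5 counts.

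Monocyte and macrophage genes were present in part, lysosomal enzymes and some surface receptors among them. Of 34 members 16 were present (47.1%, beside 53.5% of protein-coding genes), with a median of 0.814 FPKM. CTSD, the lysosomal protease cathepsin D, had 1432 and 1568 FPKM, CTSB had 186 and 182 FPKM and CTSS had 41.1 and 44 FPKM. GPNMB, a lysosome-associated glycoprotein, had 137 and 140 FPKM, CD4, which also marks monocytes, 109 and 109 FPKM, and CD68, a lysosomal membrane protein, 42 and 48.7 FPKM. CD33, a myeloid Siglec, had 38.5 and 47.4 FPKM, and FCGR1A, the high-affinity IgG receptor, had 13.3 and 15.7 FPKM. MARCO, a macrophage scavenger receptor, had 16.4 and 13.9 FPKM, and MERTK, a receptor for dying cells, had 6.62 and 6.42 FPKM. Other receptors of the list were lower. ITGAM (CD11b) had 2.6 and 2.58 FPKM, CSF1R, the M-CSF receptor, 0.618 and 0.78 FPKM, CD14, the endotoxin co-receptor, 0 and 3 counts, and CD163, the hemoglobin scavenger receptor, 3 and 2 counts. MRC1, MSR1 and FCGR3A had 0 counts.

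Later neutrophil genes were mostly silent, with 5 of 20 present (25%) and 12 not detected. Among protein-coding genes 53.5% were present and 28.3% were not detected. The calgranulin S100A9 had 12.3 and 11 FPKM from 74 and 68 counts. Its partner S100A8 had 7.5 and 6.73 FPKM from 20 and 22 counts. The implied length of S100A8 was only 136 and 167 bases, so its FPKM is uncertain. CHI3L1 was highest at 18.4 and 17.1 FPKM, and CAMP, cathelicidin, had 11 and 19 counts. LTF (lactoferrin) had 0 and 3 counts, and LCN2, MMP8 and CEACAM8, proteins of secondary granules, had none. Of 19 S100 genes 9 were present and 5 were not detected, with a median of 0.939 FPKM over the family. The highest were S100A6, which had 1452 and 1438 FPKM, and S100A4, a regulator of cell movement, with 1164 and 1220 FPKM.

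Stem and progenitor markers were present for 6 of 19 members, and 5 had 0 counts. CD34 had 0 counts, KIT had 14 and 23 counts, and FLT3, a receptor tyrosine kinase of progenitors, was just inside the presence rule at 1.09 and 1.06 FPKM. CD99 (355 and 363 FPKM), CD47 (66.3 and 56.6 FPKM), CLEC12A (61.2 and 60.4 FPKM) and CD44 (59 and 69.2 FPKM) were the members above 10 FPKM. CD34, KIT and FLT3 were thus not among the higher members. CD38 was low, at 0.411 and 0.616 FPKM.

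Markers of other blood lineages mostly fell below the presence rule. Among all protein-coding genes 53.5% were present and 28.3% were not detected. Over the red-cell, platelet, eosinophil and mast cell, B, T, NK and dendritic lists, 16 of 121 members were present, 52 were not detected and the median was 0.0243 FPKM. Only 8 reached 10 FPKM. NKG7, a granule membrane protein of killer cells, had 572 and 594 FPKM, while PRF1, GNLY and KLRD1 had 0 counts. TPSAB1, tryptase, had 333 and 368 FPKM, while its near-identical neighbour TPSB2 had 14 and 4 counts and reads may be split between them. CPA3, carboxypeptidase of mast cells, had 0 and 2 counts. IGLL1, a surrogate light chain of B-cell precursors, had 76.6 and 66.4 FPKM and CD79A 10.3 and 8.95 FPKM, and MS4A1 and IGHM had 0 counts. The T-cell adaptor LAT had 18.2 and 19 FPKM, and CD3D, CD3E and LCK had 0 counts. SIGLEC6 (31.1 and 32.3 FPKM), BATF3 (23.9 and 23.7 FPKM), NFE2 (18.8 and 20.1 FPKM) and EPOR (11.2 and 10.3 FPKM) complete the 8.

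Hemoglobin genes HBA1 (0 and 2 counts), HBA2 (1 and 0 counts) and HBB (0 counts) were near 0, as were platelet PF4 (0 counts) and ITGA2B (2 and 8 counts). Of 29 genes of other tissues 1 was present, the tubulin TUBB3, at 12.2 and 12.1 FPKM. EPCAM had 0 and 3 counts and ALB, albumin, had none. None of 13 cancer-testis genes in the table was present, and PRAME was nearest, at 0.967 and 1.03 FPKM. XAGE1B, a related X-linked antigen outside the lists and chosen after its values were seen, had 983 and 959 FPKM and its near-identical copy XAGE1A 134 and 112 FPKM.

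**Figure D5:**
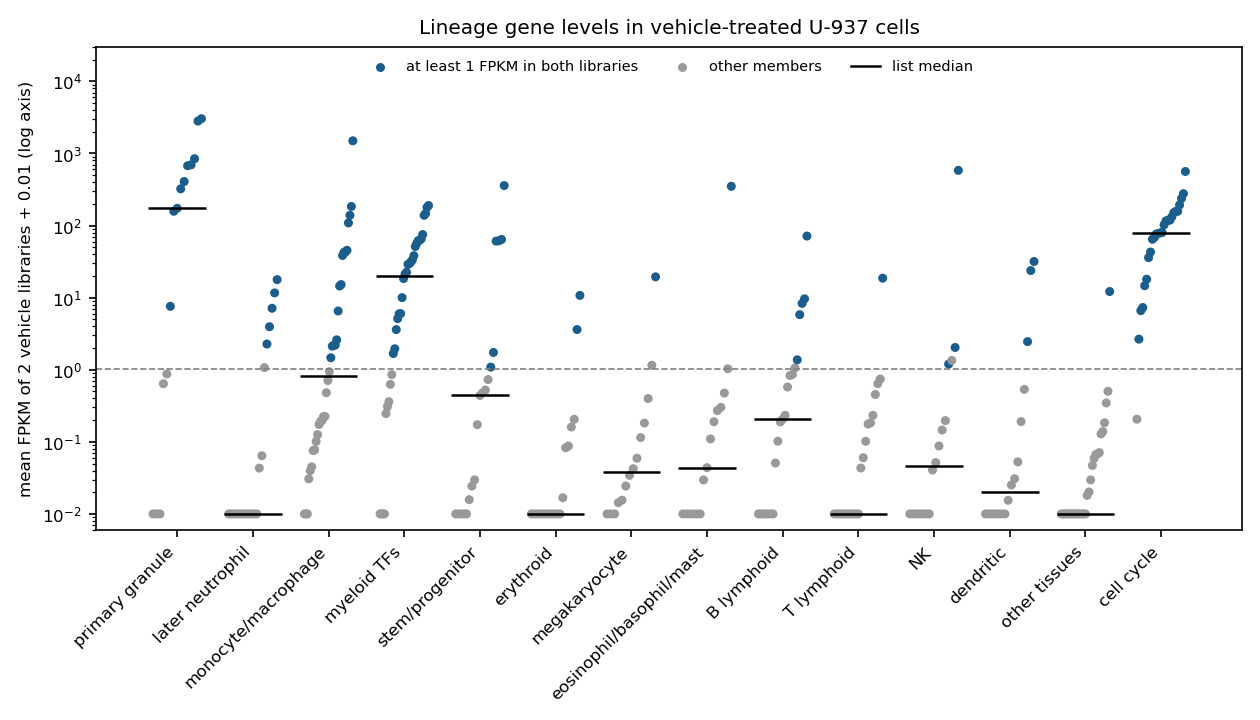
Mean FPKM of the 2 vehicle libraries + 0.01 on a log axis for the members of 14 lists, each point a gene, blue where it is present in both libraries and grey otherwise; bars are list medians and the dashed line is 1 FPKM. Primary granule and cell cycle lists have medians of 174 and 79.6 FPKM, whereas erythroid, T lymphoid and other-tissue lists have a median of 0.

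Receptors and host-defence genes gave a mixed picture. Of 26 cytokine receptor genes 17 were present. IL2RG, the shared gamma chain, had 260 and 265 FPKM, CSF3R, the G-CSF receptor, 42.2 and 46 FPKM, IL6R 43.7 and 37.6 FPKM and CSF2RA, of the GM-CSF receptor, 12.8 and 12.3 FPKM. IL3RA, the interleukin-3 receptor, was low at 0.616 and 0.325 FPKM. In the Toll-like receptor and pattern-receptor list 6 of 17 were present, with the adaptor MYD88 at 30 and 28.9 FPKM and TLR4, the endotoxin receptor, at 5.73 and 4.34 FPKM, and TLR7 had 0 counts. CXCR4, the marrow-homing receptor, had 136 and 158 FPKM and was the only one of 20 chemoattractant receptors above 10 FPKM, and 6 were present. Of 10 Fc and complement receptor genes 7 were present. FCER1G, the signalling chain, had 123 and 141 FPKM and FCGR2A 33.9 and 34.3 FPKM.

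Adhesion genes were present for 17 of 19. ITGB2, the beta chain of leukocyte integrins, had 313 and 328 FPKM and its partner ITGAL (CD11a) 25.9 and 29 FPKM, 9.94-fold and 11.2-fold above ITGAM. For the NADPH oxidase, 7 of 8 genes were present. CYBA, the membrane partner subunit, had 443 and 426 FPKM, and RAC2 186 and 194 FPKM. CYBB, the catalytic subunit, was low, at 0.806 and 1.04 FPKM (65 and 83 counts), so it was 551-fold and 411-fold below CYBA. NCF1, which has near-identical pseudogenes, had 1.49 and 1.43 FPKM.

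Antigen presentation differed by class. HLA class I and its machinery were present for 10 of 11 members, led by B2M at 2298 and 2290 FPKM and HLA-B at 776 and 806 FPKM. HLA class II had 6 of 12. CD74, the invariant chain, had 72.4 and 82.8 FPKM and HLA-DRB1 20 and 19 FPKM, while HLA-DRA, its alpha-chain partner, had 1.97 and 1.29 FPKM and HLA-DQA1 had 0 counts. HLA genes vary between people and share sequence, so single-gene values are uncertain. Among cytokines 9 of 17 were present: MIF had 2177 and 2376 FPKM, IL32 758 and 811 FPKM and CCL5 155 and 168 FPKM, and IL6, IL10 and IL1A had 0 counts.

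Genes of the pathways that the study targets were at modest levels in vehicle cells. RARA, the retinoic acid receptor alpha, had 21 and 21.8 FPKM, and its partners were RXRB at 27.4 and 27 FPKM and RXRA at 17.4 and 16.8 FPKM. RARB had 13 and 19 counts, and CYP26A1, which degrades retinoic acid, had none. TET3 had 3.73 and 3.34 FPKM, TET2 0.954 and 0.735 FPKM (180 and 138 counts) and TET1 0.562 and 0.462 FPKM, all enzymes that oxidise methylcytosine. SLC23A2, an ascorbate transporter, had 12.2 and 12 FPKM, and its relative SLC23A1 7 and 2 counts. DHRS3, a retinal reductase, had 4.19 and 5.52 FPKM.

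The most abundant genes of all were not lineage genes. The 20 highest by mean FPKM were 9 ribosomal protein genes, 7 mitochondrially encoded genes, 1 ribosomal protein pseudogene and 3 others. COX3, a mitochondrial subunit of cytochrome oxidase, led with 14938 and 13284 FPKM, and RPS18 followed with 10844 and 10213 FPKM. TMSB4X, which binds actin monomers, had 9262 and 10114 FPKM, FTL, the ferritin light chain, 8076 and 8837 FPKM, and EEF1A1, an elongation factor, 7582 and 7040 FPKM. RPL36AP37, the pseudogene, at 5440 and 6992 FPKM, resembles its parent gene, and reads may be split between them. Ribosomal protein genes took 30.8% and 30.5% of summed FPKM but 11.1% and 11.4% of the counts, since they are short, and mitochondrial genes took 4.22% and 4.11% of the counts. The top 10 genes by counts held 6.78% and 6.75% of each library, the top 100 held 24.3% and 24.8% and the top 1000 held 55.4% and 55.9%. Outside those groups, ACTB (4770 and 5163 FPKM), PPIA (3687 and 3850 FPKM), ENO1 (2380 and 2688 FPKM) and CST7, a cystatin of myeloid and killer cells, (1965 and 2014 FPKM) were high.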

How the data were processed

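The vehicle libraries, 2 of 8, were poly-T enriched mRNA from U-937 cells. Per the submitters' processing notes the software included DESeq2 (1.36.0) and Salmon (1.8.0), with no role stated, and the genome builds hg38 and GRCh38 are named. No source used here gives the annotation release, how strand was treated, how transcripts were combined per gene, or how FPKM was scaled. The authors deposited estimated counts per Ensembl gene, with decimals in 20.5% of the vehicle values, and FPKM for the same genes. All sample columns were mapped to a sample, and 0 were left unmapped.

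Names came from the deposited table, and gene types and positions from GENCODE 29, matched for 57933 of 61125 genes. CPM was computed from the counts. Counts of genes by level class, shares of each library, list counts and medians, exact Poisson intervals and library agreement were computed with Python 3.11.15, pandas 2.3.3, numpy 2.4.6 and scipy 1.17.1, and figures with matplotlib 3.10.9. With 1 group and 2 libraries there was no test and no p-value. Floors and intervals cover counting error only.

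The 34 gene lists hold 546 genes, 545 of them in the table, and 256 (47%) were present. Lists and members were chosen with earlier results of these data known. Named genes are the 4 markers, the 20 highest with a symbol, of each list up to 6 members at 10 FPKM or more, the 3 lowest and lineage-defining ones, all HOXA genes, and the 10 highest protein-coding genes outside the lists. The text gives a part of these, and some list members are not reported here by name and are left out of the plots that label genes. Locus neighbours, noncoding genes, gene families by name and X-linked antigens were chosen after values were seen. Promoters and motifs came from RefSeq (GRCh38.p14). A comparison of promoters by level class was void, because only 75.1% to 77.9% of low, trace and undetected genes, and 71.7% of list genes, had an entry, under the 80% needed.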

Additional observations from a re-analysis of the deposited data

How the results depend on the processing

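No paired analysis was possible because 1 group is described and no contrast was fitted. The number of genes present, 11969, ranged from 8560 at 5 FPKM to 15653 at 0.1 FPKM, with 12092 by TPM, 12488 by CPM and 13152 when either library sufficed. It was 12522 to 12599 when 1 library was left out. List members present, 256, ranged from 202 to 325 over the same thresholds and from 263 to 270 with 1 library left out. Of 34 lists, 25 kept a count within 1.5-fold at 0.1 FPKM, 26 at 5 FPKM and 30 to 33 under the others. The top 10 genes took 6.77% of counts, 9.18% of FPKM and 5.44% without mitochondrially encoded genes, and 6.75% to 6.78% with 1 library left out. The median absolute log2 difference in CPM, 0.117, was 0.0927 with at least 100 counts and 0.153 with no minimum. The cause was not tested. The promoter thresholds of 0.5 and 2 FPKM were not run, since that comparison was void. Genes under about 10 counts are limited by depth, and FPKM of genes with unequal implied lengths is uncertain.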

Other observations

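Long noncoding RNAs mostly fell below the presence rule, with 844 of 14630 present (5.77%, beside 19.6% of all genes) and 9 at 100 FPKM or more. Poly-T enrichment can miss RNAs without a poly-A tail. The highest was an unnamed entry on chromosome 21 that the annotation types as lincRNA, at 1703.5 and 1365 FPKM. What RNA its reads came from was not tested. SNHG29, a host gene of small nucleolar RNAs, had 1118 and 1020 FPKM in vehicle replicates 1 and 2, SNHG5 had 991 and 941 FPKM, and GAS5 had 720 and 694 FPKM. LINC00926 had 270 and 273 FPKM, and NEAT1, the scaffold of paraspeckles, had 36.4 and 55.9 FPKM.

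Gene families grouped by name ran from nearly silent to nearly complete. Of 388 olfactory receptor genes 1 was present, of 55 keratins 1, and of 94 keratin-associated proteins 0, while 47 of 48 complex I (NDUF) genes and 48 of 50 proteasome (PSM) genes were. Of 520 ZNF zinc finger genes 284 were present (54.6%). The cathepsins had 10 of 15 present, and CTSL and CTSE had 0 counts in both libraries. Of 11 cystatin genes named CST with a number, 2 were present, CST7 and CST3, the second at 1135 and 1123 FPKM. CSTB, a cystatin that this naming leaves out, had 583 and 604 FPKM. None of 5 granzymes was present, in the same libraries as CTSG at 2865 and 2764 FPKM. GZMA came nearest, at 0.978 and 1.7 FPKM from 12 and 21 counts, and missed the rule in replicate 1 only.

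Around MLLT10 on chromosome 10, COMMD3 had 214 and 204 FPKM and DNAJC1 had 27.8 and 26.3 FPKM, while SKIDA1, which overlaps the start of MLLT10, had 3 and 0 counts.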
